A study of Homo sapiens with 6 samples.

Results

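MYC, PVT1 and 8 genes of the MAX/MLX network were followed in PANC-1, a line of human cells grown from a carcinoma of the pancreas. The set holds the rows of the deposited table named MYC, PVT1, MAX, MXD1, MXD3, MXD4, MXI1, MNT, MLX and MLXIP, which are 10 of 60612 genes. The set was chosen on measured values, because MYC differed between libraries of 1 group in these data. The values of MYC are therefore given as a description, with no test. The other genes were joined to it by their place in the network. All 10 passed the filter on low counts that left 18863 genes for testing.

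Poly(A) RNA was measured by RNA-seq in 6 libraries of this line. The raffinose group of 3 libraries was given D(+)-raffinose pentahydrate, a plant trisaccharide, at 50 µM for 24 h. For the untreated group of 3 libraries the sample descriptions name the cell line alone, with no vehicle and no time. The treatment text of the labels names the compound for all 6 libraries, so the groups rest on titles and descriptions. Whether replicates are separate cultures is stated nowhere in the labels, so p-values reflect only how far these 6 libraries vary, and that variation may be technical. All libraries come from 1 cell line grown in medium with serum.

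MYC is a basic helix-loop-helix leucine zipper transcription factor that binds DNA only as a dimer with MAX. The dimer binds a short palindrome, the E-box, and raises transcription of genes for growth, metabolism and ribosome assembly. MXD1, MXI1, MXD3, MXD4 and MNT also pair with MAX, bind the same E-boxes and bring in SIN3 corepressors. MLX is a MAX-like partner of MLXIP (MondoA) and MLXIPL (ChREBP), which respond to glucose 6-phosphate and related sugars. PVT1 is a long noncoding RNA gene downstream of MYC that is often amplified with it in cancer.

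The E-box is shown here in the promoters of network genes, since it is the site through which these proteins act, and MLX, MNT and MXD4 carry it themselves. The letters CACGTG, which read the same on both strands, were searched in the 250 bases before each start in RefSeq promoters of GRCh38.p14. Of 35116 promoters 6.34% held them, and of 27305 genes 7.73% held them in at least 1 promoter. Promoters were used for 8 of the network genes, and 3 of these 8 held the E-box, at 50 bases before the start in MLX, 193 in MNT and 238 in MXD4. No exact E-box was found in this window for MXD1, MXD3, MXI1, MAX or MLXIP. The bases after the MXD3 start and after a MAX start were not found in reference transcripts of these genes. The MXD3 window begins at 177312703, beyond the gene end of 177311895 in the deposited table. The MXD1 window begins at 69914859, inside a gene that starts at 69897688 there. The absence thus holds for the starts searched alone. The sequences below are stretches of 100 bases on the strand of the gene, 5′ to 3′, with the E-box in capitals. They lie at chr17:42567000-42567099 (plus strand), chr17:2401201-2401300 (minus strand) and chr4:2262260-2262359 (minus strand).
MLX: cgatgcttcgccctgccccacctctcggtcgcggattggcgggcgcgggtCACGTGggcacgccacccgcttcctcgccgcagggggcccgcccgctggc
MNT: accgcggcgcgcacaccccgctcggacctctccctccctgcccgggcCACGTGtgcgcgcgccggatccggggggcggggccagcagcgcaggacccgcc
MXD4: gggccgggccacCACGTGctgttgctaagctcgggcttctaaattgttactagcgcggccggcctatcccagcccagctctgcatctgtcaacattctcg

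ARRDC4 and TXNIP, the arrestin-like genes that MLXIP is known to activate, are shown because they report on the MLX branch. ARRDC4 held the exact E-box 210 bases before its start. TXNIP held none in this window, and its stretch shows a pair of CACGAG boxes 5 bases apart, first base 88 bases before the start. The pair was searched as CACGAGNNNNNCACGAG on both strands, and 2 of 35116 promoters (0.0057%) held it. These are the box letters and spacing of TXNIP itself, so TXNIP is among the hits by construction. The share does not cover pairs with other letters or spacing. Capitals mark the boxes, and the stretches lie at chr15:97960453-97960552 (plus strand) and chr1:145996609-145996708 (minus strand). A match of letters is a description and shows no binding.
ARRDC4: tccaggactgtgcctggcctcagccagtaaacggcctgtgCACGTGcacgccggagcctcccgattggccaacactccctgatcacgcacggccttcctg
TXNIP: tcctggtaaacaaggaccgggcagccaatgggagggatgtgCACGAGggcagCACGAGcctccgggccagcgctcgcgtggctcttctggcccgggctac

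Levels below are CPM, which are counts scaled to a common library size after TMM normalisation, unless FPKM (scaled also to gene length) is named. Total counts per library ranged from 59723420 to 66063664. In bulk RNA, fewer cells with a transcript and less of it per cell cannot be told apart. The keratins of simple epithelium marked the line, with KRT8 at 2009 to 3590 CPM and KRT18 at 1303 to 2119 CPM, while KRT19 and EPCAM stayed under 1 CPM in every library. The summed level of 10 epithelial genes was 3638 to 3989 CPM with raffinose and 4849 to 5928 CPM without. All 10 acinar and endocrine markers had at most 10 counts in every library, and 8 were at 0 throughout. Of 8 leukocyte markers 1 reached a mean of 1 FPKM, the lysosomal gene CD68, at 16.6 to 23.3 CPM with raffinose and 32.6 to 40.8 CPM without. Of 9 fibroblast markers 1 did so, the collagen gene COL1A1. Summed levels were 17.9 to 24.7 CPM with and 33.5 to 41.6 CPM without raffinose for the leukocyte list, and 40.5 to 45.7 and 35.4 to 39.3 CPM for the fibroblast list. The part of these differences in the values below was not tested.

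MYC stood at separate levels within the raffinose group. It was at 11.4 CPM in raffinose replicate 1, 65.7 CPM in replicate 2 and 61.3 CPM in replicate 3. The untreated libraries held 13.1, 7.99 and 12.3 CPM. Raffinose replicate 1 therefore lay inside the untreated range, and the other raffinose libraries lay above all untreated ones, the lower of them 4.68-fold above the highest untreated library. Replicate 2 was 5.75-fold above replicate 1 and 1.07-fold above replicate 3. The untreated libraries spanned 1.64-fold. The raffinose mean was 46.1 ± 30.1 CPM and the untreated mean 11.1 ± 2.76 CPM (SD, n = 3 each). MYC (ENSG00000136997) lies on chromosome 8, 127735434 to 127741434, plus strand, in the coordinates of the deposited table.

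The deposited counts behind these levels were 732, 4159 and 3946 in raffinose replicates 1, 2 and 3. They were 841, 515 and 730 in untreated replicates 1, 2 and 3. MYC thus had at least 515 counts in every library. FPKM showed the same step, with 2.09, 11.9 and 11.5 in the raffinose libraries and 1.44 to 2.30 in the untreated ones. The FPKM of MYC was 0.175 to 0.187 times its CPM in all libraries, so the step is in both deposited measures. Both come from 1 quantification by the authors, so they are no independent check of each other, and the part of that quantification in this step was not tested.

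**Figure D1:**
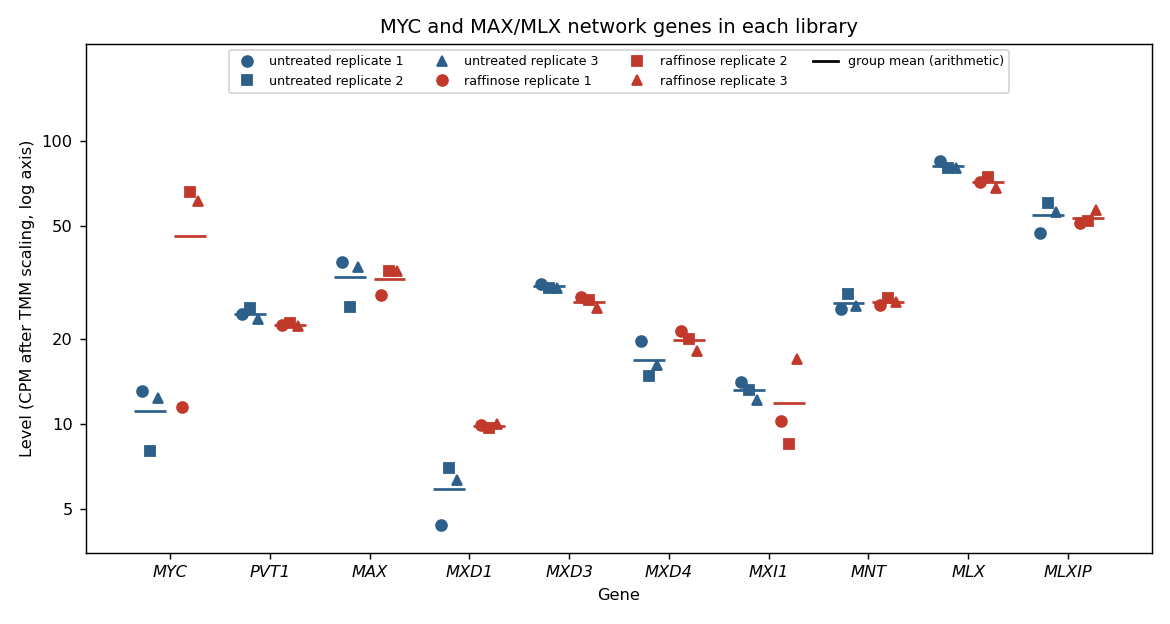
Level of each of the 10 genes in each library, in CPM on a log axis, with replicates as symbols and the arithmetic mean of each group as a line. MYC is at 61.3 to 65.7 CPM in 2 raffinose libraries and at 7.99 to 13.1 CPM in the other 4, while the 3 raffinose libraries of MXD1 lie above its untreated ones.

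Steps of this size within a group were also found in other genes. Among 11962 tested genes with a mean of at least 1 FPKM in a group, the median ratio of the highest to the lowest raffinose library was 1.16. A ratio at least as large as that of MYC was found in 152 of them (1.27%) within the raffinose group. Within the untreated group 129 genes (1.08%) had such a ratio, with a median of 1.18. In the 152 genes the library farthest from the other two was raffinose replicate 1 for 46, replicate 2 for 49 and replicate 3 for 57. MXI1 was the network gene with the next largest ratio, 2.00, which 6.60% of the genes reached. The remaining 8 network genes had ratios from 1.02 to 1.22 within the raffinose group.

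**Figure D2:**
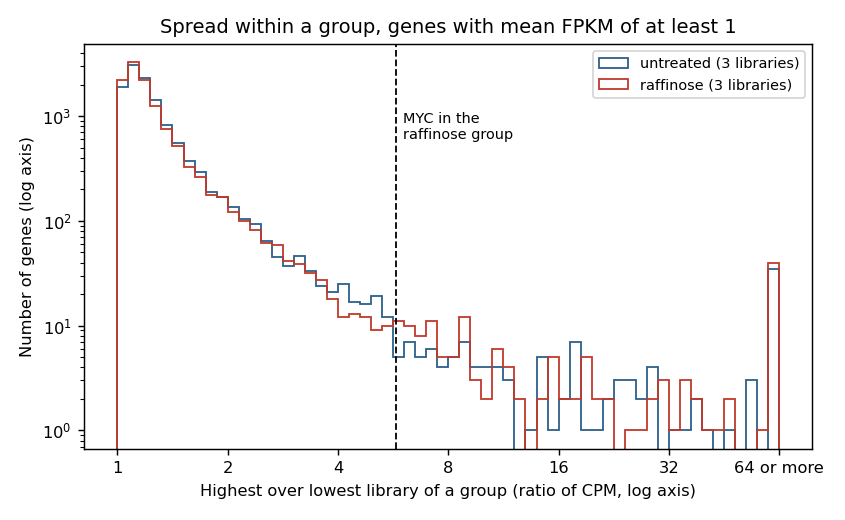
Number of genes, on a log axis, by the ratio of the highest to the lowest library within the raffinose group and within the untreated group, on a log axis, for 11962 genes with a mean of at least 1 FPKM in a group. The dashed line marks the 5.75-fold ratio of MYC, which 152 genes reach in the raffinose group and 129 in the untreated group.

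PVT1 and CASC11, the nearest tested genes, were not higher where MYC was high. PVT1 (ENSG00000249859, chromosome 8, 127794526 to 128187101, plus strand) was at 22.4, 22.6 and 22.2 CPM with raffinose. It was at 24.4, 25.7 and 23.4 CPM without, so the groups did not overlap. Its log2 fold change was -0.13 (SE 0.07, edgeR adjusted p = 0.518) and did not pass. CASC11 is a noncoding RNA gene on the opposite strand. Its own start lies 1467 bases from the MYC start, and the genes run away from each other. CASC11 had 15 counts in raffinose replicate 1 and 0 in replicates 2 and 3. Its untreated libraries had 18, 26 and 20 counts. With 0 counts a library allows up to 3 counts, for counting error alone. CASC11 was thus at 0 in the 2 libraries where MYC was highest. Its fitted log2 fold change of -2.10 (SE 1.33, edgeR adjusted p = 0.561) fixes no size. It ranged from -7.43 without raffinose replicate 1, where the raffinose libraries left are at 0, to -0.056 with limma on log2(FPKM + 1), and passed in none of 14 alternatives. From 500000 bases before MYC to 500000 after PVT1 the table lists 25 genes, of which 4 were tested: MYC, PVT1, CASC11 and PCAT1. The 10 genes listed inside PVT1, among them microRNA genes such as MIR1204, had at most 15 counts in every library.

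Farther genes of the 8q24 region were described from a list of 22, of which 10 were tested. The difference was positive in 3 and negative in 7 (70%), where 49% of all tested genes were negative. None passed by edgeR in either direction. An unadjusted p under 0.05 was found for 2 of the 10 (20%), near the 13.3% of all tested genes (2506 of 18863). LRATD2, upstream of MYC, was at 21.6, 18.1 and 19.996 CPM with raffinose and at 26.9, 28.7 and 26.0 CPM without. The groups did not overlap. Its log2 fold change was -0.45 (SE 0.09, edgeR adjusted p = 0.160), and DESeq2 called it lower (adjusted p = 0.00633), as it did 2.17% of all tested genes. Of the 10 genes of the list, 2 were higher and 2 lower without overlap, against 10.6% and 10.9% of all tested genes. PRNCR1, a noncoding RNA gene, was at 5.06 CPM in raffinose replicate 2 and at 0.248 to 0.500 CPM in the other 5 libraries (log2 fold change 2.51, 0.13 to 2.99 over 14 alternatives, edgeR adjusted p = 0.370). SQLE, a sterol synthesis enzyme gene, was at 89.5 to 90.9 CPM with raffinose and 80.6 to 84.7 CPM without (log2 fold change 0.12, SE 0.05, edgeR adjusted p = 0.400).

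Across the whole table edgeR called 7 genes higher (0.0371% of 18863) and 16 lower (0.0848%) with raffinose. DESeq2 called 1.35% higher and 2.17% lower. Leaving out untreated replicate 3 gave 0 higher and 4 lower by edgeR, with 1969 genes at an unadjusted p under 0.05. None of the 9 network genes other than MYC passed by edgeR. An unadjusted p under 0.05 was found for 3 of the 9, and for 13.3% of all tested genes in the same fit. DESeq2 called 1 of the 9, MXD1. Groups did not overlap for 1 of the 9 genes that was higher and 3 that were lower, where 10.6% and 10.9% of all tested genes did so.

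Of the partners, MAX, the obligate dimer partner of MYC, stood at 28.4, 34.7 and 34.6 CPM with raffinose. It was at 37.4, 26.0 and 35.8 CPM in the untreated libraries. The ranges overlapped, with a log2 fold change of -0.02 (SE 0.16, edgeR adjusted p = 0.974). Raffinose replicate 1, low in MYC, was also the lowest of the raffinose libraries for MAX, but untreated replicate 2 was lower still. The direction of MAX turned with the scaling and with libraries left out.

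Among the MXD repressors, MXD1 differed most. It was at 9.87, 9.67 and 10.01 CPM with raffinose and at 4.39, 6.96 and 6.35 CPM without. All raffinose libraries lay above all untreated ones and within 1.03-fold of each other. The raffinose libraries thus lay close together for MXD1 and apart for MYC. The log2 fold change was 0.74 (SE 0.18), which is 1.67-fold. It did not pass by edgeR (adjusted p = 0.199) and was called by DESeq2 (adjusted p = 0.0142). MXD1 (ENSG00000059728) lies on chromosome 2, 69897688 to 69942942, plus strand.

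MXD3, a repressor linked to cycling cells, was at 28.0, 27.5 and 25.6 CPM with raffinose and at 31.3, 30.3 and 30.3 CPM without. The groups did not overlap, and the log2 fold change of -0.18 (SE 0.07) had an edgeR adjusted p of 0.361. MXD4 was at 21.4, 19.9 and 18.1 CPM with raffinose and at 19.6, 14.8 and 16.1 CPM without. Its groups overlapped at 1 untreated library (log2 fold change 0.23, SE 0.13, edgeR adjusted p = 0.504). MXI1 was at 10.2, 8.45 and 16.9 CPM with raffinose and at 14.1, 13.2 and 12.1 CPM without. The untreated range of MXI1 lay inside its raffinose range, since raffinose replicate 3 was above and the other raffinose libraries below all untreated ones. Its log2 fold change was -0.14 (SE 0.26, edgeR adjusted p = 0.854) and turned positive without raffinose replicate 2. MNT, the widely expressed MAX-binding repressor, was at 26.3, 27.7 and 27.0 CPM with raffinose and at 25.5, 28.7 and 26.2 CPM without. Its log2 fold change was 0.01 (SE 0.08, edgeR adjusted p = 0.972), and its sign turned with 3 of the 6 libraries left out in turn.

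In the MLX branch, MLX was at 71.7, 74.6 and 68.0 CPM with raffinose and at 84.9, 79.9 and 80.0 CPM without. All raffinose libraries lay below all untreated ones. The log2 fold change of -0.19 (SE 0.06) did not pass by edgeR (adjusted p = 0.288) or DESeq2 (adjusted p = 0.190). MLXIP, its glucose-responsive partner, was at 51.2, 52.3 and 57.0 CPM with raffinose and at 47.2, 60.3 and 56.2 CPM without (log2 fold change -0.03, SE 0.10, edgeR adjusted p = 0.940). Its groups overlapped, and its sign turned with the scaling. MLX lies on chromosome 17, 42567068 to 42573239, plus strand. Of the 3 genes shown with an E-box, MLX was lower without overlap, MXD4 and MNT overlapped, and none passed.

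**Figure D3:**
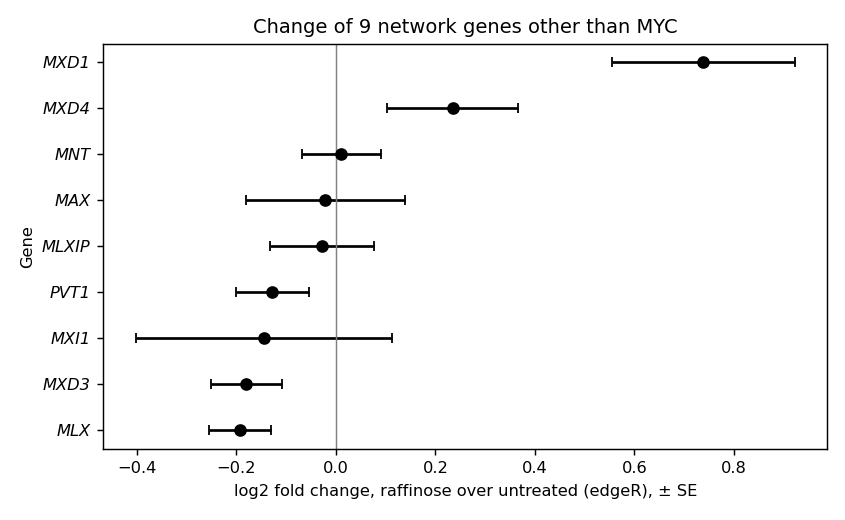
log2 fold change of raffinose over untreated for the 9 network genes other than MYC, from the edgeR fit over 18863 genes, as points with standard errors. MXD1 is at 0.74, MLX, MXD3, MXI1 and PVT1 lie between -0.19 and -0.13, and none passes after adjustment. The signs of MAX, MLXIP, MNT and MXI1 turn under some settings.

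Per length, MLX had the highest level in untreated cells, at 15.7 ± 0.270 FPKM (SD, n = 3). MXD3 followed at 4.88 ± 0.0178 FPKM, MAX at 4.33 ± 0.764, MLXIP at 3.24 ± 0.452 and MNT at 2.53 ± 0.201. MXD4 was at 2.01 ± 0.260 FPKM, MYC at 1.98 ± 0.471, MXI1 at 1.82 ± 0.114, PVT1 at 0.790 ± 0.0445 and MXD1 at 0.764 ± 0.186. Neighbours in this order whose untreated libraries overlapped were MAX and MLXIP, MLXIP and MNT, MXD4 and MYC, MYC and MXI1, and PVT1 and MXD1. MYC was thus among the low genes of the network in untreated cells. In raffinose replicates 2 and 3, at 11.9 and 11.5 FPKM, it was second to MLX, which was there at 14.6 and 13.7 FPKM.

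Of 4 other genes of the network, 3 were tested and none passed. MYCL, a MYC paralogue, was at 3.56, 4.69 and 3.65 CPM with raffinose and at 3.92, 3.35 and 2.74 CPM without (log2 fold change 0.25, SE 0.20, edgeR adjusted p = 0.644). MGA, a large MAX-binding repressor, was at 46.5, 40.8 and 53.2 CPM with raffinose and at 39.5, 59.4 and 55.7 CPM without (log2 fold change -0.14, SE 0.17, edgeR adjusted p = 0.783). MLXIPL had 50, 15 and 37 counts with raffinose and 0, 6 and 11 without, so the groups did not overlap at a low level (log2 fold change 2.50, SE 1.02, 0.10 to 3.46 over 14 alternatives, edgeR adjusted p = 0.369). MYCN had 4 counts in raffinose replicate 1 and 0 elsewhere. It was not tested.

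Genes with a pattern most like MYC were taken by Pearson's r of log2 CPM over the 6 libraries. The 1585 candidates were genes with a mean of at least 1 FPKM in a group and a range of at least 1 on the log2 scale. The highest r were 0.98 for AL110504, 0.96 for MAP1LC3B, 0.95 for DNAJC14, 0.93 for ZNF287, 0.92 for MTFMT and 0.91 for CDRT4. MAP1LC3B, the autophagosome gene LC3B, was at 68.5, 135 and 118 CPM with raffinose and at 64.3, 60.8 and 83.7 CPM without. DNAJC14, a chaperone cofactor gene, was at 26.3, 54.9 and 57.5 CPM with raffinose and at 34.3, 31.3 and 32.6 CPM without. Both were highest in raffinose replicates 2 and 3, with a highest-to-lowest raffinose ratio of 1.97 for MAP1LC3B and 2.19 for DNAJC14, less than that of MYC. AL110504 was under 5 CPM in every library.

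The zinc finger gene ZNF287 was at 12.2, 18.1 and 16.4 CPM with raffinose and at 9.70, 8.89 and 8.99 CPM without, so all 3 raffinose libraries were above the untreated ones. MTFMT, the mitochondrial methionyl-tRNA formyltransferase gene, was at 13.5, 27.0 and 25.0 CPM with raffinose and at 13.3 to 17.1 CPM without. CDRT4 was at 0.281, 11.2 and 1.99 CPM with raffinose and at 0.358 to 0.405 CPM without. The 6 libraries fall into 2 with high MYC and 4 with low MYC, and r rests on the former. Over the 4 other libraries alone, r of these 6 genes with MYC ranged from -0.16 for MTFMT to 0.85 for AL110504. No p is given, since the genes were ranked on r among libraries that share their sequencing and scaling.

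For the opposite pattern, genes among those of lowest r were PAWR and PFKFB3 at -0.99 and MAP3K20 at -0.98. PAWR, a pro-apoptotic regulator, was at 102, 50.6 and 56.2 CPM with raffinose and at 93.8, 106 and 101 CPM without. PFKFB3, also on the list of MLXIP targets, which makes the fructose 2,6-bisphosphate that speeds glycolysis, was at 25.6, 11.8 and 13.7 CPM with raffinose and at 28.5, 31.7 and 27.1 CPM without. MAP3K20, a stress-activated kinase gene, was at 124, 71.6 and 76.1 CPM with raffinose and at 133, 156 and 145 CPM without. In all 3 genes raffinose replicate 1 was the highest raffinose library, and within the untreated range for PAWR only. Over the 4 other libraries r ranged from -0.85 for PAWR to -0.67 for MAP3K20.

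**Figure D4:**
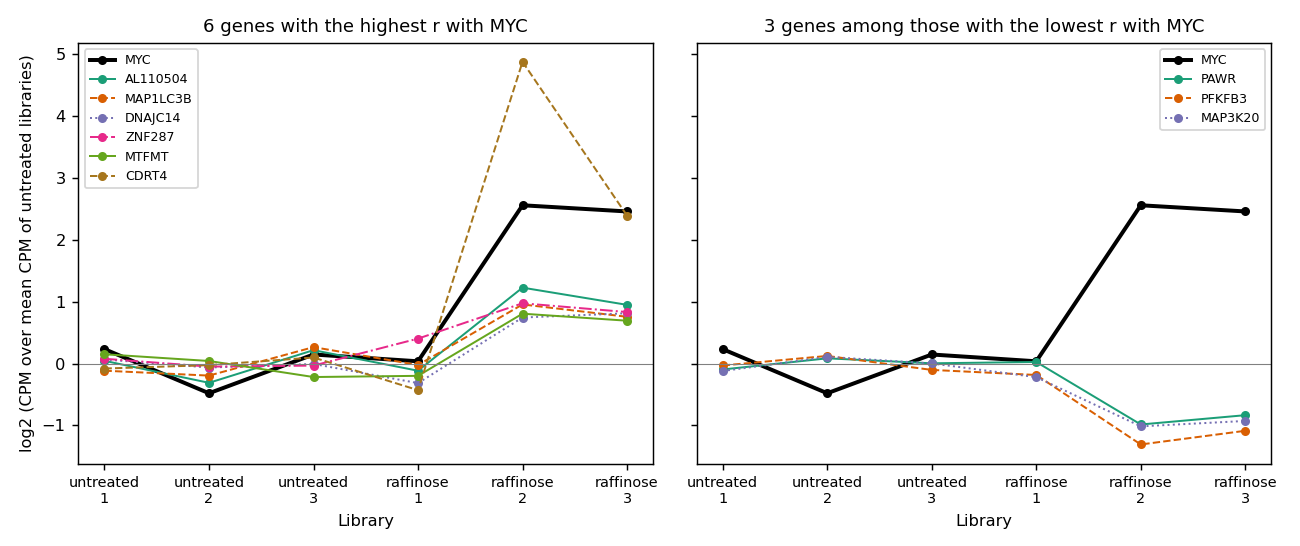
log2 of CPM over the mean of the untreated libraries, by library, for MYC (black) with the 6 genes of highest r (left) and 3 genes among those of lowest r (right), where lines only join the points of 1 gene. The genes were chosen for r with MYC, so the step of raffinose replicates 2 and 3 follows from the choice. MAP1LC3B is at 135 and 118 CPM there and PAWR at 50.6 and 56.2 CPM. CDRT4 is far higher in replicate 2 than in replicate 3.

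Genes that MYC is known to activate, ribosome assembly genes left out, were not higher as a list where MYC was high. Of 38 tested, 10 were above and 28 (73.7%) below 0 in log2 fold change, with a median of -0.16. Of all tested genes 49% were below 0, with a median of 0.01. None passed by edgeR, and DESeq2 called 1 higher and 3 lower, against 1.35% and 2.17% of all tested genes. An unadjusted p under 0.05 was found for 16 of the 38 (42.1%), against 13.3% of all tested genes. Relative to the untreated mean, the median of the list was -0.15 in raffinose replicate 1, -0.11 in replicate 2 and -0.12 in replicate 3 on the log2 scale. The list was thus lower in all 3 raffinose libraries, and the library with low MYC was the lowest by a small margin. The exact E-box was in the promoter of 11 of 34 of these genes (32.4%).

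SRM, spermidine synthase, was at 178, 169 and 179 CPM with raffinose and at 209, 205 and 208 CPM without. Its log2 fold change was -0.24 (SE 0.05, edgeR adjusted p = 0.154), and DESeq2 called it lower (adjusted p = 0.0116). BCAT1, which transaminates branched-chain amino acids, was at 101, 92.5 and 130 CPM with raffinose and at 141, 159 and 156 CPM without. TERT, the catalytic subunit of telomerase, was at 2.58, 2.64 and 2.21 CPM with raffinose and at 3.78, 4.001 and 3.77 CPM without. CCND2, a G1 cyclin, went the other way, at 2.92, 2.10 and 2.58 CPM with raffinose and at 1.34, 0.806 and 1.42 CPM without. For all 4 of these genes the groups did not overlap, and all 4 were called by DESeq2 and none by edgeR. They were named for the smallest p of the list, which favours groups without overlap. Over the 38 genes of the list, 3 were higher and 14 lower without overlap, against 10.6% and 10.9% of all tested genes.

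Genes listed here as repressed by MYC lay mostly above their untreated level. Of 19 tested, 15 (78.9%) were above and 4 below 0 in log2 fold change, with a median of 0.26. Of all tested genes 51% were above 0. None passed by edgeR, and DESeq2 called 2 higher and 1 lower, against 1.35% and 2.17% of all tested genes. Of the 19, 9 (47.4%) had an unadjusted p under 0.05, against 13.3% of all tested genes. The median relative to untreated cells was 0.13 in raffinose replicate 1 and 0.26 in both replicates 2 and 3. It was thus largest where MYC was high, and the value in raffinose replicate 1 lay above all untreated libraries, which ranged from -0.05 to 0.07.

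NDRG1, a stress-responsive gene, was at 16.1, 17.4 and 17.1 CPM with raffinose and at 12.8, 12.9 and 12.5 CPM without (log2 fold change 0.41, SE 0.08, edgeR adjusted p = 0.151, DESeq2 adjusted p = 0.00318). ID2, an inhibitor of basic helix-loop-helix factors, was at 17.6, 15.7 and 15.1 CPM with raffinose and at 12.9, 9.15 and 9.49 CPM without. ID2 is on this list, but MYC is also reported to activate it, so its direction cannot be read as repression. GADD45A, a growth arrest gene, was at 56.5, 54.5 and 52.6 CPM with raffinose and at 46.9, 43.3 and 46.3 CPM without. COL3A1, a fibrillar collagen gene, was at 322, 331 and 341 CPM with raffinose and at 373, 390 and 394 CPM without. The groups overlapped for none of these 4 genes, which were named for the smallest p, and only COL3A1 of the 4 was lower. Over the 19 genes of the list, 7 were higher and 3 lower without overlap, against 10.6% and 10.9% of all tested genes. DESeq2 called NDRG1, ID2 and COL3A1.

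Targets of MLXIP and MLXIPL did not move one way. Of 12 tested, 6 were positive and 6 negative, with a median of -0.02 that turned in sign with the setting, and none passed by edgeR. Of all tested genes 51% were positive. DESeq2 called 1 higher, ARRDC4, against 1.35% of all tested genes. By edgeR 5 of the 12 (41.7%) had an unadjusted p under 0.05, against 13.3% of all tested genes. ARRDC4 was at 2.53, 2.29 and 2.70 CPM with raffinose and at 0.872, 1.40 and 1.504 CPM without. Its groups did not overlap, with a log2 fold change of 0.9959 (SE 0.25, edgeR adjusted p = 0.199, DESeq2 adjusted p = 0.0259). TXNIP was at 1.58, 3.52 and 4.26 CPM with raffinose and at 1.15, 2.11 and 1.88 CPM without. It overlapped in raffinose replicate 1 (log2 fold change 0.86, SE 0.41, edgeR adjusted p = 0.432). Both arrestin-like genes were low, at most 4.26 CPM.

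Among other targets of the MLX branch, SCD, a fatty acid desaturase, was at 1786, 1791 and 1914 CPM with raffinose and at 1571, 1642 and 1599 CPM without (log2 fold change 0.19, SE 0.05, edgeR adjusted p = 0.199). G6PC3, a glucose 6-phosphatase subunit, was at 31.1, 31.7 and 31.8 CPM with raffinose and at 39.7, 35.2 and 38.6 CPM without. HK2, a hexokinase, was at 39.4, 40.5 and 35.4 CPM with raffinose and at 46.2, 50.8 and 44.7 CPM without. The groups of these 3 genes, named for a small p, did not overlap, SCD higher and G6PC3 and HK2 lower. Over the 12 tested genes of the list, 2 were higher and 3 lower without overlap, against 10.6% and 10.9% of all tested genes. The exact E-box was in the promoter of 5 of 11 genes of this list (45.5%).

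**Figure D5:**
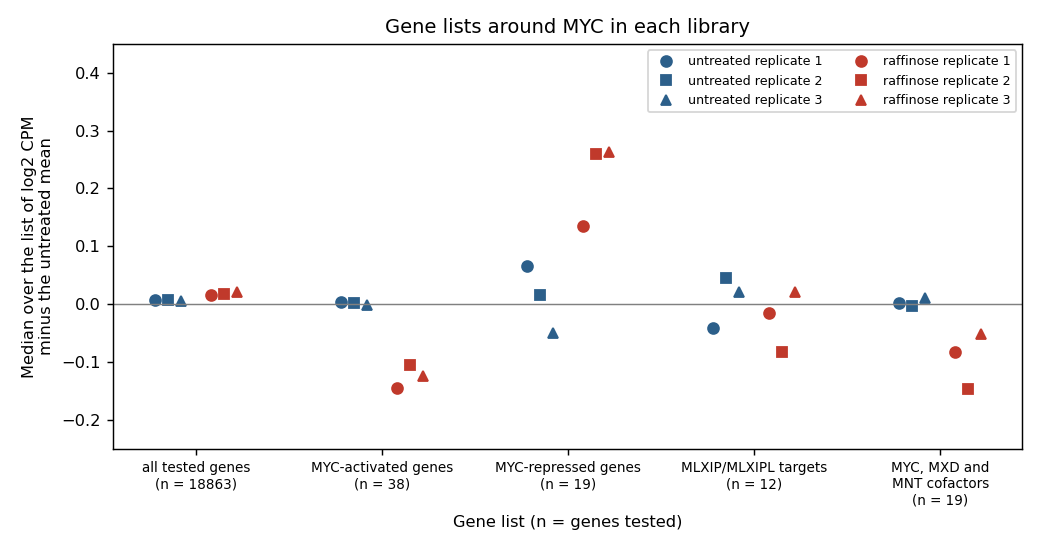
Median over each gene list of log2 CPM minus the mean of the untreated libraries, for each library. In all 3 raffinose libraries MYC-activated genes lie at -0.15 to -0.11 and genes listed as MYC-repressed at 0.13 to 0.26. All tested genes lie at 0.02.

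Cofactors of MYC, MXD and MNT proteins lay mostly below their untreated level. Of 19 tested, 5 were positive and 14 (73.7%) negative, with a median of -0.07, and none passed by edgeR. Of all tested genes 49% were negative. Of the 19, 5 (26.3%) had an unadjusted p under 0.05, against 13.3% of all tested genes. DESeq2 called 2 lower, KAT5, the TIP60 acetyltransferase, and RUVBL1, an ATPase that works with it. Of all tested genes it called 2.17% lower. KAT5 was at 46.3, 51.0 and 45.6 CPM with raffinose and at 62.5, 59.0 and 62.3 CPM without (log2 fold change -0.36, SE 0.07, edgeR adjusted p = 0.146, DESeq2 adjusted p = 0.00405). RUVBL1 was at 164, 177 and 156 CPM with raffinose and at 200.02, 204 and 197 CPM without. Its partner ATPase RUVBL2 was at 247 to 269 CPM with raffinose and 287 to 316 CPM without. WDR5, a scaffold that holds MYC on chromatin, was at 88.9 to 96.7 CPM with raffinose and 104 to 105 CPM without. All 4, named for the smallest p, were lower without overlap, and raffinose replicate 1 was the lowest raffinose library for none of them. Over the 19 genes of the list, 1 was higher and 7 lower without overlap, against 10.6% and 10.9% of all tested genes.

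Factors of MYC protein turnover were balanced, with 8 of 18 positive, a median of -0.00470, whose sign turned with the setting, and none called by edgeR or DESeq2. FBXL14, a ubiquitin ligase subunit, was at 14.0, 15.0 and 16.1 CPM with raffinose and at 16.5, 19.7 and 18.9 CPM without. SENP1, a SUMO protease, was at 53.8, 49.3 and 46.6 CPM with raffinose and at 31.9, 47.0 and 40.9 CPM without, with an overlap. Factors that act on the MYC gene or its mRNA had 8 of 20 positive, a median of -0.04 and none called by either tool. Of all tested genes 51% were positive. NME2, which binds the MYC promoter, was at 218, 226 and 192 CPM with raffinose and at 250.28, 246 and 249.97 CPM without. PUF60, a repressor of MYC transcription, was at 114, 104 and 123 CPM with raffinose and at 141, 131 and 123 CPM without. These lists describe mRNA and say nothing of protein levels.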

How the data were processed

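RNA-seq of 6 PANC-1 libraries was analysed from 1 table. Per the submitters' processing notes, the tools were HISAT2 2.0.4, cutadapt 1.9, StringTie 1.3.4d, DESeq2 and edgeR, with no role given. Neither build nor strand setting is named in the sources used here. Of the deposited genes, 58394 occur in GENCODE 29, 84.6% with the same start. The authors deposited a count and an FPKM per gene and library, per the file headers. The deposited counts are whole numbers in which 4 is over-represented (1255 to 1382 genes a library, against 440 to 497 genes at 3), so they may overstate fragments.

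Counts were fitted with edgeR 4.0.16 in R 4.3.3 (filterByExpr with a minimum count of 10, TMM, glmQLFit, glmQLFTest), with Benjamini-Hochberg adjustment over 18863 genes and a threshold of 0.05. The fit was run on simulated data with the same dispersion for all genes and equal shifts in all raffinose libraries. Steps within a group, as in MYC, were not simulated, so that run does not bear on them. Alternatives were DESeq2 1.42.0, its size factors, total counts only, no filter, a filter at FPKM 1, robust dispersion, limma 3.58.1 on log2(FPKM + 1) and log2(FPKM + 0.1), counts divided by 4, the replicate number as a block, and each library left out. The genes and lists were chosen with earlier results of these data known. Named genes are all network genes, up to 4 genes of each list with the smallest p (2 for the turnover and transcription lists), 6 genes of highest and 4 of lowest r with MYC, TXNIP, ARRDC4 and neighbours of MYC. Of the 4, 1 gene is not reported here. Marker genes are named as checks of the line.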

Additional observations from a re-analysis of the deposited data

How the results depend on the processing

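The 5.75-fold spread of MYC within the raffinose group was 5.74-fold with DESeq2 size factors, 5.66-fold by total counts and 5.69-fold in FPKM, and from 1.07 to 5.75-fold with a raffinose library left out, the lowest being without replicate 1.

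Genes called higher (7) and lower (16) became 254 and 409 with DESeq2, 15 and 28 with the filter at FPKM 1, 11 and 18 with limma on log2(FPKM + 0.1), and 11 and 24 with counts divided by 4. With libraries left out they ranged from 0 to 15 and from 4 to 13, with 3 and 8 without raffinose replicate 2, 15 and 8 without untreated replicate 1, 12 and 8 without untreated replicate 2, and 0 and 4 without untreated replicate 3. The cause was not tested. The replicate number as a block gave 0 higher and 0 lower by edgeR, with 1932 genes at an unadjusted p under 0.05. Deviations of same-numbered libraries had correlations of -0.00892, -0.0326 and 0.00629, and for 0 of 6 libraries was the closest one that of the same number, so numbers were not used as pairs.

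Of 755 values over the 48 genes of the naming rule and the alternatives, 726 kept direction and side of the threshold, 14 newly passed it, 13 of these with DESeq2, and 15 turned in sign. The 15 belong to MAX, MLXIP, MNT and MXI1. MAX was at 0.014 by total counts, 0.021 and 0.027 with limma at pseudocounts of 1 and 0.1, and from -0.17 to 0.075 with libraries left out. MLXIP was at 0.0034, 0.010 and 0.014, and from -0.12 to 0.050. MNT ranged from -0.026 to 0.064 and MXI1 from -0.49 to 0.049 with libraries left out. MXD1 kept its direction in all 16 alternatives (0.39 to 0.88) and passed with DESeq2 alone.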
